A study of Homo sapiens with 9 samples.

Results

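This account describes the RNA of control OVCAR3 cells, the cells that carried a scramble short hairpin RNA (shRNA), in 3 libraries of the 9 in the series. A short hairpin RNA is processed by the cell into a small guide that lowers matching mRNAs, and a scramble hairpin is a control with no intended target. All 3 libraries labelled as scramble control were taken, and every gene was described in them without a comparison with other groups. OVCAR3 is an established human cell line derived from an ovarian carcinoma and bought from ATCC, so the libraries describe a single line and not a set of tumours. The cells were of WT genotype by label, grew in an RPMI medium with bovine insulin (0.01 mg/ml) and 10% FBS, and were cultured for 72 h. The other 6 libraries carried shRNA#76 or shRNA#78 against GPX3, which encodes a secreted glutathione peroxidase, and were read only for that gene. The labels number the replicates 1 to 3 but do not say whether they came from separate cultures, so the spread given here may be technical.

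High-grade serous ovarian carcinoma is thought to arise mostly from the epithelium of the fallopian tube, a part of the Mullerian tract. Its cells keep transcription factors of that tract, such as PAX8 and SOX17, together with keratins and junction proteins of simple epithelia. PAX8 is a paired-box factor used to trace a tumour to the Mullerian or renal tract. MUC16 is a very long membrane mucin whose shed part is the serum antigen followed in ovarian cancer, and WFDC2 is a small secreted protein measured in serum for the same purpose. CCNE1 encodes cyclin E1, which drives entry into DNA synthesis with CDK2, and its region is recurrently gained in this disease.

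The libraries held 15517932, 16986128 and 17759012 counts for replicates 1, 2 and 3. Levels are given as FPKM, fragments scaled for library size and for the summed length of all annotated exons of a gene. That length can exceed the transcript made, so orders and ratios between genes are approximate. At these depths 1 FPKM over 1 kb corresponded to between 15.7 and 17.4 counts. The 3 control libraries were compared pair by pair, and their counts differed by 5.02 to 11.1 chi-square units per degree of freedom over genes, so none was a copy of another. GPX3, the targeted gene, was at 54.3, 34.2 and 37.1 FPKM in the control libraries. It was at 8.87 to 17.8 FPKM in the 6 libraries with a hairpin against it, so the label of each control library matched its GPX3 level and the ranges did not overlap.

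The 4 markers of the line were abundant in every library. WFDC2 was at 225, 160 and 166 FPKM, with a mean of 184 ± 36.0 (SD, n = 3), and replicate 1 was the highest. PAX8 was at 128, 122 and 114 FPKM, with a mean of 121 ± 6.66, which placed it 239th of 19951 protein-coding genes. The ranges of WFDC2 and PAX8 did not overlap. CCNE1 was at 59.7, 41.5 and 49.0 FPKM, with a mean of 50.1 ± 9.18. MUC16 was at 43.6, 34.5 and 27.7 FPKM, with a mean of 35.3 ± 7.95, so CCNE1 was above MUC16 in each library although their ranges over libraries overlapped. MUC16 still took between 21176 and 29948 counts per library, against 14744 to 15479 for PAX8, because its annotated exons cover 43830 bases and those of PAX8 7400.

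For these genes the 100 bases just before the RefSeq start nearest to the annotated 5′ end are shown, because the classes of expressed and silent genes are set against promoter letters further on. They are from GRCh38.p14, read 5′ to 3′ on the gene's strand. Capitals mark CCAAT or GGGCGG on either strand, and TATAAA was searched for in the same way.
PAX8 (chr2:113278922-113279021, minus strand): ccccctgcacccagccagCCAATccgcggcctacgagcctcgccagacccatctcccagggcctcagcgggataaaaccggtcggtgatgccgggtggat
WFDC2 (chr20:45469653-45469752, plus strand): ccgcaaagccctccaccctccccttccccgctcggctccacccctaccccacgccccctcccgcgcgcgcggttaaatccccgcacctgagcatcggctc
CCNE1 (chr19:29811891-29811990, plus strand): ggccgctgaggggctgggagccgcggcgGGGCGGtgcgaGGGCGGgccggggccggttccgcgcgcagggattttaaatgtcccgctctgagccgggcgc
MUC16 (chr19:9010410-9010509, minus strand): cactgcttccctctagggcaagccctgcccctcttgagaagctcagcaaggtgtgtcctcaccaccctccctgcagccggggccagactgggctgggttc
The PAX8 stretch holds a CCAAT and the CCNE1 stretch a pair of GGGCGG matches, while the other 2 stretches hold none of the 3 motifs. A match is a description of letters and not a bound site. The RefSeq table lists 2 starts for MUC16, and the one shown lies outside the MUC16 interval of the deposited files, which ends at 8981342 on chromosome 19.

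A gene was counted as expressed where its FPKM was at least 1 in each of the 3 libraries, not detected where it had 0 counts in all 3, and low in between. Of 19951 protein-coding genes, 10744 (53.9%) were expressed, 5995 (30.05%) were low and 3212 (16.1%) were not detected. The expressed protein-coding genes had a median of 7.50 FPKM. Most of them were modest in level, with 6440 at a mean of 1 to 10 FPKM, 3990 at 10 to 100, 298 at 100 to 1000 and 16 at 1000 or more. Only 4 of those 16 were encoded in the nucleus. Of 14959 long non-coding genes 768 (5.13%) were expressed, with a median of 2.39 FPKM, and of 10191 processed pseudogenes 310 (3.04%) were.

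A class of "not detected" is not always silence in these files. The libraries carry no strand, and a fragment that lies in exons of more than 1 gene can be left uncounted. Among the 3212 protein-coding genes with 0 counts, 401 (12.5%) had at least 90% of their exon bases inside exons of other genes, against 2 of the 10744 expressed genes (0.0186%). EEF1G, a subunit of the elongation complex found in every cell, was listed at 0 with 99.9% of its exon bases shared, and TOMM6, a part of the mitochondrial import pore, and TREX1, a DNA exonuclease, were listed at 0 with all of theirs shared. These 3 genes were picked after their values were seen, and their levels cannot be read from the files.

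Mitochondrially encoded RNA led the list of levels. The 13 mitochondrial protein-coding genes, which encode subunits of the respiratory chain and of ATP synthase, held 14.4%, 15.8% and 15.9% of all FPKM in replicates 1 to 3. All 37 mitochondrial genes held 17.3% ± 0.818 of summed FPKM but 4.51% ± 0.233 of counts, since FPKM gives short genes more weight than counts do. MT-CO3, a subunit of cytochrome c oxidase, was at 6766, 7340 and 7515 FPKM. MT-CO1, the catalytic subunit of the same complex, was at 6775, 7193 and 7237 FPKM. Their ranges overlapped, and the ranges of MT-ATP6 and MT-CO2, with means of 5062 and 5029 FPKM, overlapped too. Replicate 1 was the lowest for each of these 4 genes. MT-ATP8 was the lowest of the 13, at 219, 243 and 250 FPKM. RNA of the 2 mitochondrial ribosomal RNA genes was also present in these poly-A libraries, at 1.08% ± 0.0185 of summed FPKM.

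Among nuclear genes the translation machinery stood first. The cytosolic ribosomal proteins, of which 81 of 84 were expressed, held 8.92% ± 0.291 of summed FPKM and 7.12% ± 0.283 of counts. RPS2, of the small subunit, was at 2535, 2427 and 2798 FPKM. RPS16, of the same subunit, was at 2408, 2308 and 2614 FPKM, and the ranges of these 2 genes overlapped. The next ribosomal proteins were RPL8 at a mean of 910 FPKM, RPS3 at 895 and RPL41 at 832. RPL10L, a testis paralogue of RPL10, had 0 counts. Ribosomal protein genes have many near-identical processed copies in the genome, so part of their reads could be split or dropped. EEF1A1, the elongation factor that brings aminoacyl-tRNA to the ribosome, was at 1370, 1420 and 1527 FPKM, and EEF2, the translocation factor, had a mean of 657.

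The highest nuclear genes outside the ribosome encoded cytoskeleton, simple-epithelial keratins, iron storage and glycolysis. TMSB10, an actin-monomer binding peptide, was at 1588, 1572 and 1752 FPKM. The cytoplasmic actins ACTG1 and ACTB had means of 922 ± 41.1 and 701 ± 46.9 FPKM. FTH1, the ferritin heavy chain that stores iron, was at 691, 770 and 922 FPKM, although 62.4% of its exon bases lie in exons of other genes. GAPDH and ENO1, enzymes of glycolysis, had means of 782 ± 61.0 and 685 ± 41.1 FPKM. SPINT2, a membrane inhibitor of serine proteases, was at 613 ± 34.9. Farther down stood FBL, a nucleolar methyltransferase of ribosomal RNA, at 587 ± 27.9, and CA2, a carbonic anhydrase, at 473, 616 and 569 FPKM. HSPB1, a small heat shock protein, was at 322, 454 and 457 FPKM, lowest in replicate 1.

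A few genes held much of the RNA. The 20 highest genes by FPKM held 19.4%, 20.6% and 21.0% of summed FPKM in replicates 1 to 3, and the 100 highest held 33.5% ± 0.916. The 20 highest nuclear protein-coding genes held 7.29% ± 0.233. Protein-coding genes as a class held 91.4% ± 0.235 of FPKM and 97.5% ± 0.0652 of counts. Long non-coding genes held 1.85% ± 0.108 of FPKM and 1.05% ± 0.0637 of counts, and processed pseudogenes 3.24% ± 0.0327 and 0.577% ± 0.0147. The share of a class thus depended on whether it was read per length or per fragment.

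The 10 highest long non-coding genes of at least 300 bases had means of 41.2 to 102 FPKM, and some of them host small nucleolar RNAs. SNHG19, a host of small nucleolar RNAs, was at 99.4, 108 and 99.9 FPKM. NORAD, a cytoplasmic RNA that binds Pumilio proteins, was at 69.4, 72.4 and 78.6 FPKM. MALAT1, an abundant nuclear-speckle RNA, was at 48.1, 56.1 and 40.4 FPKM. SNHG8 and SNHG6, which are hosts as well, and GAS5, a growth-arrest transcript that also hosts small nucleolar RNAs, had means of 48.6, 44.0 and 41.7 FPKM. LRRC75A-AS1 had a mean of 57.3 FPKM. AP002360.1, AC099850.3 and AC073174.1, which carry no assigned function in the files, had means of 75.3, 53.8 and 41.2. For SNHG6 and AC099850.3, 36.4% and 30.2% of exon bases lie in exons of other genes.

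Of 12 genes listed for the Mullerian and ovarian carcinoma lineage, 10 were expressed, against 53.9% of all protein-coding genes. The list was chosen with earlier results of these data known and includes PAX8, MUC16 and WFDC2, so this count is a description and no test. CDH6, a cadherin of the kidney and Mullerian epithelium, was at 136, 152 and 150 FPKM. SOX17, a partner of PAX8 in this tract, was at 84.8, 79.7 and 70.4 FPKM. MSLN, the mesothelin surface protein, was at 77.6, 58.8 and 57.9 FPKM, with replicate 1 above the others. FOLR1, a folate receptor, had a mean of 38.3 ± 3.43, EMX2, a homeobox factor of the urogenital tract, 37.7 ± 1.22, and WT1, a zinc-finger factor that marks serous carcinoma, 26.1 ± 1.49. MECOM, a zinc-finger factor, was the lowest of the expressed ones, at 5.71, 7.04 and 6.92 FPKM. The members below the threshold were OVGP1, the oviduct glycoprotein, at 0.298, 0.272 and 0.403 FPKM, and ESR1, the oestrogen receptor alpha, at 0.0598, 0.0630 and 0.0414 FPKM (10 to 15 counts).

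Among 20 transcription factors of Mullerian and other tracts, 11 were expressed, a share close to the 55.1% of all annotated transcription factors. Beyond those just named, LHX1, a homeobox factor of the early Mullerian duct and kidney, was at 21.2, 18.4 and 16.4 FPKM. The HOXA genes that pattern the tract from tube to vagina stood in the order of their places along it: HOXA9 at 4.32 ± 0.787 FPKM, HOXA10 at 1.36 ± 0.172, HOXA11 at 0.297 ± 0.115 and HOXA13 at 0.0517 ± 0.0352. The ranges of these 4 genes did not overlap between neighbours. HOXA9, HOXA10 and HOXA11 share 26.3% to 31.1% of their exon bases with other genes. GATA6, a factor of endoderm and gonad, was low by the rule, at 0.889, 0.723 and 1.00 FPKM. PAX2, which also serves the Mullerian duct, had 2, 0 and 1 counts, GATA3 1, 0 and 0, and GATA4 had none, which allows at most 0.0431 FPKM (3 counts in the shallowest library). NKX2-1, a factor of lung and thyroid, was expressed at 7.23, 6.05 and 7.16 FPKM. FOXA1 and FOXA2, pioneer factors of endodermal and hormone-responsive epithelia, had means of 5.52 and 1.27.

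All 17 genes listed for epithelial identity were expressed. KRT8, KRT18, KRT19 and KRT7, the keratins of simple epithelia, had means of 804 ± 68.9, 673 ± 77.0, 679 ± 33.0 and 313 ± 29.1 FPKM. KRT8 and KRT18, which pair in filaments, were lowest in replicate 1 and in a ratio of 1.24, 1.18 and 1.18. In replicate 1 they had 78210 and 29485 counts over annotated exons of 6881 and 3218 bases, so the ratio depends on these lengths. CLDN3, a tight-junction claudin, was at 328, 352 and 367 FPKM. EPCAM, an adhesion molecule of epithelia, was at 121, 127 and 128 FPKM, and CDH1, E-cadherin, at 41.1, 38.3 and 38.3. The epithelial regulators ESRP1 and ESRP2 (splicing), GRHL2 and ELF3 (transcription) had means of 42.9, 19.6, 15.9 and 23.1 FPKM. MUC1 was the lowest of the 17, at 10.9, 9.21 and 9.12 FPKM.

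Of 16 markers of other epithelia and carcinoma types, 2 were expressed, NKX2-1 and KRT5. KRT5, a keratin of basal cells, was at 6.91, 7.27 and 8.95 FPKM. The basal-cell markers KRT14 (1, 1 and 0 counts) and TP63 (11, 13 and 13 counts) were near 0. KRT6A, KRT15 and KRT17, keratins outside this list, were expressed, so KRT5 was not alone among keratins of this kind. KRT20 and CDH17, markers of intestine, had 0 counts, which allows at most 0.104 and 0.0490 FPKM. TFF3, a secreted trefoil peptide, was at 1.20, 0.498 and 0.147 FPKM, highest in replicate 1, from 22, 10 and 3 counts.

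**Figure D1:**
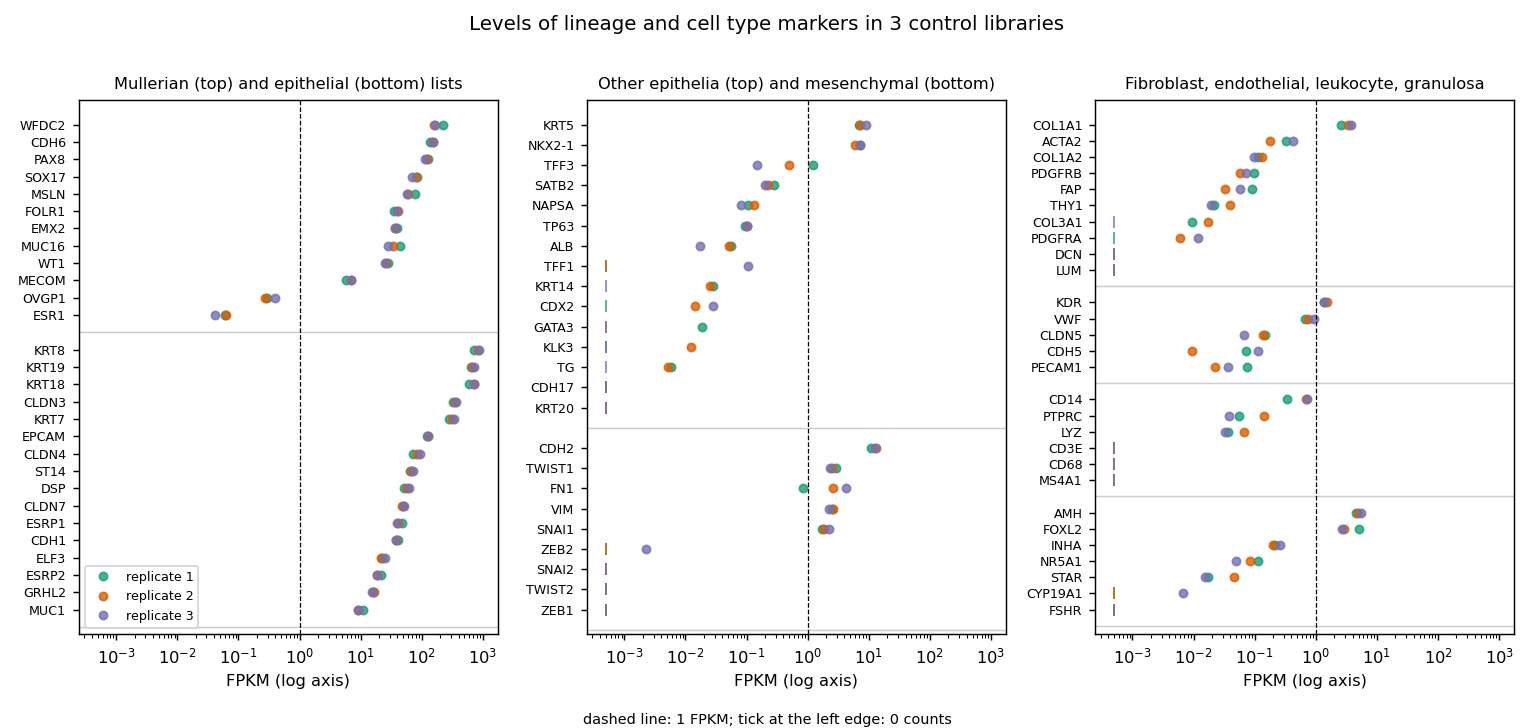
FPKM (log axis) of lineage and cell type markers in the 3 control libraries, 1 point per library and colours for the replicates; the dashed line is 1 FPKM and ticks at the left edge are 0 counts. All epithelial genes plotted and 10 of 12 Mullerian genes lie right of the line, and most markers of other cell types lie left of it.

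Mesenchymal genes were partly present at low levels. CDH2, N-cadherin, was at 10.9, 13.3 and 12.8 FPKM, so CDH1 was above it by a ratio of 3.77, 2.87 and 3.00 in the 3 libraries. VIM, the intermediate filament of mesenchyme, was at 2.46, 2.56 and 2.19 FPKM. TWIST1 and SNAI1, transcription factors that repress epithelial genes, had means of 2.57 ± 0.303 and 1.93 ± 0.285. FN1, fibronectin, was at 0.851, 2.58 and 4.17 FPKM, a wide spread that left it low by the rule although 2 libraries were above 1. ZEB1, SNAI2 and TWIST2, factors of the same kind, had 0 counts, which allows at most 0.0221, 0.0564 and 0.102 FPKM, and ZEB2 had 1 count in all.

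In bulk RNA a low level in every cell cannot be told apart from a higher level in a few cells, and this holds for each low value given here. Markers of cell types that a tumour would hold but a cell line should not were mostly low or at 0. None of 7 leukocyte markers was expressed, and CD3E of T cells and MS4A1 of B cells had 0 counts. CD68 was at 0 too, but 85.8% of its exon bases are shared with other genes, so its 0 is not informative. The summed level of the 7 was 0.806, 1.31 and 1.27 FPKM, with CD14 of monocytes at 0.582 ± 0.213. Of 10 fibroblast markers 1 was expressed, COL1A1, a collagen chain, at 2.58, 3.41 and 3.82 FPKM, while DCN and LUM had 0 counts and COL1A2 was at 0.114 ± 0.0163. Of 5 endothelial markers 1 was expressed, KDR, a receptor for vascular growth factor, at 1.35, 1.53 and 1.38 FPKM, while VWF was just under the threshold at 0.675, 0.750 and 0.945. PECAM1 and CDH5 were at 0.0445 ± 0.0265 and 0.0654 ± 0.0523. The count for this list was 2 at 0.5 FPKM and 0 at 2 FPKM.

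Of 7 granulosa and steroid-cell markers, AMH and FOXL2 were expressed. AMH, the hormone that regresses the Mullerian duct, was at 4.54, 4.88 and 5.57 FPKM. FOXL2, the granulosa transcription factor, was at 5.11, 2.87 and 2.70 FPKM, highest in replicate 1. CYP19A1, FSHR and STAR, which serve steroid synthesis and its control, had 1, 0 and 5 counts over the 3 libraries. The ciliated-cell list had 3 of 6 expressed: FOXJ1, the master factor of motile cilia, at 10.2, 11.3 and 13.2 FPKM, CAPS at 4.73 ± 0.109 and RSPH1, a radial-spoke protein, at 1.75 ± 0.0795. DNAH9, a dynein of ciliary arms, had 0, 3 and 3 counts. Of 4 mesothelial markers 1 was expressed, UPK3B, at 16.9, 13.8 and 13.6 FPKM. MSLN, the mesothelin gene, and WT1 were expressed but counted in the Mullerian list, so this count does not stand for all mesothelial genes. Of 6 germ and pluripotency genes 1 was expressed, POU5F1, at 1.01, 1.47 and 2.16 FPKM. POU5F1 has near-identical pseudogenes, while NANOG and LIN28A were at 0.0236 FPKM or below and 0.0581 or below. SOX2, a pluripotency and foregut factor outside this list, was at 71.9, 77.4 and 70.4 FPKM.

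Serous carcinomas are sorted into 4 expression subtypes, each with a few leading genes. In the control cells the 4 proliferative-subtype genes were all expressed: PCNA, the replication clamp, at 60.5 ± 5.92 FPKM, MCM2, a helicase subunit, at 32.6 ± 0.302, SOX11 at 11.6 ± 1.79 and HMGA2, a chromatin protein of embryonic cells, at 6.83 ± 1.12. All 3 differentiated-subtype genes were expressed as well, SLPI at 403 ± 22.5 beside MUC16 and MUC1. Of 3 mesenchymal-subtype genes ANGPTL2 was expressed, at 23.6 ± 0.302, while FAP and ANGPTL1 were at 0.0606 and 0.342. None of the 3 immunoreactive-subtype genes was, with CXCL10 at 2 counts in each library, CXCL11 at 1 in all and CXCR3 at 0. With 3 or 4 genes to a subtype, these are levels and not a call of subtype. PCNA and MCM2 also count as cell cycle genes, and MUC16 and MUC1 as lineage and epithelial genes.

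All 9 oncogenes that are recurrently gained in serous carcinoma were expressed, over a wide range. AKT2, a kinase of the PI3K pathway, was at 88.6, 86.3 and 86.5 FPKM. URI1, a prefoldin-like protein encoded next to CCNE1, was at 79.7, 84.9 and 83.6 FPKM, so its range lay just under that of AKT2. NOTCH3 had a mean of 48.9 ± 1.18 and MYC 14.0 ± 1.13, while MECOM and PIK3CA were at 6.56 ± 0.737 and 5.30 ± 0.237. The 8 tumour suppressors of the disease were all expressed too. CDKN2A, which encodes an inhibitor of CDK4 and CDK6, was far above the others, at 176, 159 and 168 FPKM. NF1, which restrains RAS signalling, had a mean of 20.8 ± 0.901. RB1, the target of those kinases, was at 5.80, 5.44 and 4.57 FPKM. BRCA1 and BRCA2, of homologous recombination, had means of 3.47 ± 0.382 and 1.86 ± 0.279. A level of RNA does not say whether the protein is intact, and no variant was read.

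Of 24 cell cycle genes 23 were expressed. CCND1 was the main D cyclin, at 62.8, 71.5 and 78.7 FPKM, and its ratio to CCND3 was 11.3, 16.9 and 16.2. CCND2 had 0 counts, which allows at most 0.0267 FPKM. CCNE1 likewise stood over its paralogue CCNE2, at a ratio of 34.3, 24.3 and 28.2, although 37.1% of the exon bases of CCNE2 are shared with other genes. CCNB1 and CCNA2, the mitotic and S-phase cyclins, had means of 64.3 ± 7.14 and 43.1 ± 3.96 FPKM. The partner kinases CDK4, CDK1, CDK6 and CDK2 had means of 44.6, 37.2, 12.7 and 11.5, with 43.2% of the exon bases of CDK4 shared. Among the inhibitors CDKN2A was followed by CDKN1B at 36.3 ± 0.565 and CDKN2B at 10.6 ± 1.27, while CDKN1A, an inhibitor of CDK2, was at 2.32, 3.89 and 3.46 FPKM. MKI67 and TOP2A, markers of proliferating cells, had means of 31.2 ± 0.454 and 41.5 ± 1.81.

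Of 18 receptor tyrosine kinases 12 were expressed. EPHA2, an ephrin receptor, was highest, at 81.9, 80.2 and 85.4 FPKM. EGFR was at 15.7, 22.3 and 21.2, ERBB3 at 18.8 ± 1.18, FGFR1 at 16.1 ± 0.319 and ERBB2 at 15.8 ± 1.02, and the range of EGFR overlapped those of the other 3. INSR, the insulin receptor, was at 2.29, 2.24 and 1.82 FPKM and IGF1R at 0.709, 0.810 and 0.819, a ratio of 3.24, 2.76 and 2.23. AXL, KIT, PDGFRA, PDGFRB and FLT1 were low. Of 6 steroid receptors 1 was expressed, NR3C1, the glucocorticoid receptor, at 3.85, 3.03 and 3.52 FPKM. That count was 2 at a threshold of 0.5 FPKM and 5 at 10 counts in each library. NR3C2, the mineralocorticoid receptor, had a mean of 0.769 and ESR2, the oestrogen receptor beta, 0.106, and PGR, the progesterone receptor, had 4, 1 and 0 counts.

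All 12 surface proteins listed as antibody targets in carcinoma were expressed, over 2 orders of magnitude. SLC34A2, a phosphate transporter, was highest at 366, 375 and 387 FPKM, above CDH6. CLDN6, an embryonic claudin, was at 42.5 ± 3.59. PTK7, NECTIN4 and F3 had means of 17.3, 7.51 and 2.04. Of 16 secreted proteins 13 were expressed. SLPI, an inhibitor of leukocyte proteases, was at 418, 377 and 414 FPKM, and KLK5, a kallikrein protease, at 206, 192 and 203. CLU, the chaperone clusterin, was at 229, 95.3 and 83.2 FPKM, and CP, the copper carrier ceruloplasmin, at 137, 87.4 and 73.1, so replicate 1 was apart from the other 2 for both. GDF15, a stress cytokine, was at 6.48 ± 0.237. SPP1, MMP7 and KLK11 were low, at means of 0.233, 0.220 and 0.585.

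Gene families differed in how many members were used. Of 55 keratins 12 were expressed, and 4 of them, KRT8, KRT19, KRT18 and KRT7, held 94.4% of the family's FPKM, with KRT4, a keratin of stratified mucosa, next at 44.3, 59.8 and 70.5. Of 24 claudins 10 were expressed, with CLDN3 at 60.2% of the sum and CLDN4, CLDN7 and CLDN6 after it. Of 23 cadherins 7 were expressed, and CDH6 held 61.2%, ahead of CDH1, CDH3 and CDH2. Of 17 mucins 4 were expressed, MUC16 (58.6% of the sum), MUC1, MUC20 and MUC15, while MUC2, MUC17 and MUC19 had 0 counts. Of 26 integrin subunits 11 were expressed. ITGB1 led at 75.7 ± 3.75, and ITGB5 was at 65.9, 39.99 and 38.9 FPKM, higher in replicate 1. Of 16 kallikreins 5 were expressed, all between 50943303 and 51020175 on chromosome 19, and KLK5 held 77.7% of the family's sum. KLK2 and KLK9 had 0 counts, as had plasma kallikrein KLKB1, which the name pattern also took.

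Among transcription factor families PAX was nearly a single gene, since PAX8 held 97.9% of the FPKM of its 9 members, with PAX9 the only other one expressed, at 1.60 ± 0.104. Of 19 SOX genes 8 were expressed. SOX17 and SOX2, a pluripotency and foregut factor, were at 78.3 ± 7.32 and 73.2 ± 3.69 FPKM, with a ratio of 1.18, 1.03 and 0.999, so their order was not fixed by 3 libraries. Of 39 HOX genes 14 were expressed. HOXA5 led at 26.6, 26.6 and 30.3 FPKM, followed by HOXB2 and HOXA3 with means of 18.3 and 14.2. None of the 14 was a HOXC gene. By the transcription factor annotation of the files, 853 of 1548 factors (55.1%) were expressed, close to the 53.9% of all protein-coding genes. E2F factors, which drive S-phase genes, were expressed in 10 of 11 cases, homeobox factors in 56 of 191 and T-box factors, which pattern early embryos, in 1 of 17.

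Of 10 frizzled receptors 8 were expressed, and of 19 Wnt ligands, which bind them, 8 were. FZD7, FZD2 and FZD6 had means of 20.4 ± 1.51, 17.4 ± 1.35 and 16.8 ± 1.41 FPKM, and the ranges of the last 2 overlapped. WNT5A, a ligand of the non-canonical branch, was highest among the ligands at 12.0, 14.5 and 15.5, and WNT7B followed at 8.51 ± 0.475. Aquaporins, the water channels, had 3 of 13 expressed, AQP5, AQP11 and AQP3. AQP5 was at 4.87, 7.78 and 8.19 FPKM, lowest in replicate 1.

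Tissue-restricted families were mostly silent. Of 94 keratin-associated proteins, which belong to hair, none was expressed and 89 were not detected. Of 386 olfactory receptors 349 were not detected and 1 was expressed. Of 61 cancer-testis antigens, germline genes that tumours often switch on, 36 were not detected, 23 were low and 2 were expressed. The 2 were GAGE2A, at 1.33, 3.20 and 2.72 FPKM from 11, 29 and 25 counts, and SSX1, at 1.33, 1.03 and 1.02. SSX2B was at 0.141, 1.34 and 0.535 FPKM. These genes have near-identical copies, so their counts are uncertain. SSX2IP was taken by the name pattern but is not a member of the family and was left out.

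**Figure D2:**
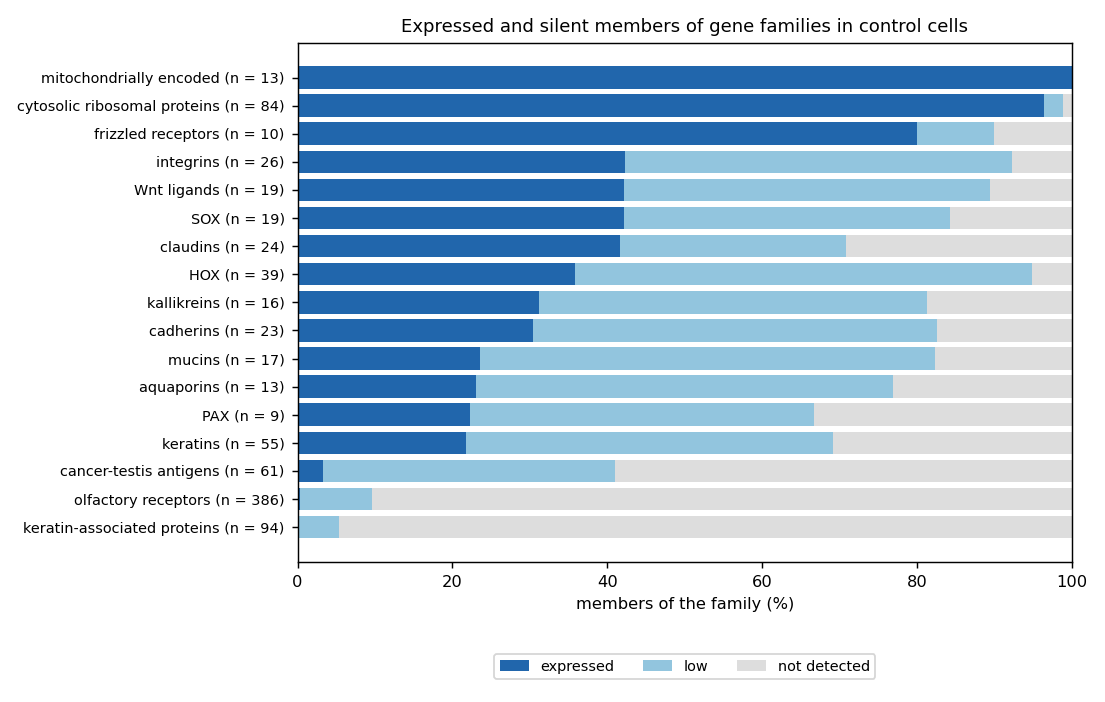
Share of the members of each gene family (%) that were expressed (at least 1 FPKM in each of 3 libraries), low, or not detected (0 counts in all 3), with the number of members beside each name. All 13 mitochondrially encoded and 81 of 84 ribosomal protein genes were expressed, against 0 of 94 keratin-associated proteins.

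Because CCNE1 lies in a region that is recurrently gained, the genes around it were read by position. Within 1 Mb of CCNE1, which spans 29811898 to 29824308 on chromosome 19 (hg38), the files hold 8 protein-coding genes. Of all protein-coding genes 53.9% were expressed, and of these 8 genes 6 were, with a median of 39.5 FPKM. They were UQCRFS1, an iron-sulfur subunit of the respiratory chain, at 19.1 ± 0.894, POP4, a ribonuclease P subunit, at 35.4 ± 1.45, PLEKHF1 at 42.5 ± 6.29, C19orf12 at 36.4 ± 2.66, CCNE1 and URI1. VSTM2B, which lies between UQCRFS1 and POP4, had 0 counts, and ZNF536, on the far side of URI1, had 1 count in all. The 6 expressed genes were each above the median of 7.50 FPKM of expressed protein-coding genes in every library. The number of copies of this DNA was not measured.

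The same was done around AKT2, chosen after its level was seen. Within 1 Mb of AKT2, at 40230317 to 40285536 on the same chromosome, 38 of 62 protein-coding genes were expressed, with a median of 30.4 FPKM. Of all protein-coding genes 53.9% were expressed, with a median of 7.50 FPKM. A mean of at least 100 FPKM was found for 2.80% of all expressed nuclear protein-coding genes and for 10 genes here. They were RPS16, FBL, PSMC4, PLD3, MED29, PAF1, SAMD4B, SUPT5H, EID2 and TIMM50. PSMC4, a proteasome ATPase, was at 426, 417 and 455 FPKM, and PLD3, a lysosomal nuclease, at 387, 371 and 391. MED29 and PAF1, of the Mediator and PAF1 transcription complexes, were at 203 ± 12.7 and 195 ± 6.74, and SUPT5H, an elongation factor, at 140 ± 4.05. Of these 10 genes, 9 lay before AKT2 in coordinate order and PLD3 after it. The lowest coordinate of SERTAD3, at 78.0 ± 7.37, lies 211 kb past that of AKT2, and beyond SERTAD3 the levels were lower. BLVRB, the next gene, was at 8.94 ± 1.56, and the highest after it was HNRNPUL1, an RNA-binding protein, at 30.6 ± 1.84. EGLN2, RAB4B and MIA, in that later stretch, share exons with read-through genes, so their low values are uncertain.

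The stretch just before AKT2 stood at the top of the nuclear genome by level. Expressed protein-coding genes were placed in windows of 2 Mb, and 195 windows held at least 15 of them. The window from 38 to 40 Mb of chromosome 19 had the highest median, 39.9 FPKM over 43 expressed genes, and it ranked 1st in each library, with medians of 44.7, 40.7 and 43.2. It holds SPINT2, RPS16, FBL and PSMC4, and AKT2 itself lies in the window after it. The median of the 195 window medians was 8.66. In that window 14 of 43 expressed genes (32.6%) had a mean of at least 100 FPKM, against 2.80% of 10731 expressed nuclear protein-coding genes. The second window, 128 to 130 Mb of chromosome 3, had a median of 25.9 over 16 genes. The window was picked for its rank, so these values describe it and test nothing.

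**Figure D3:**
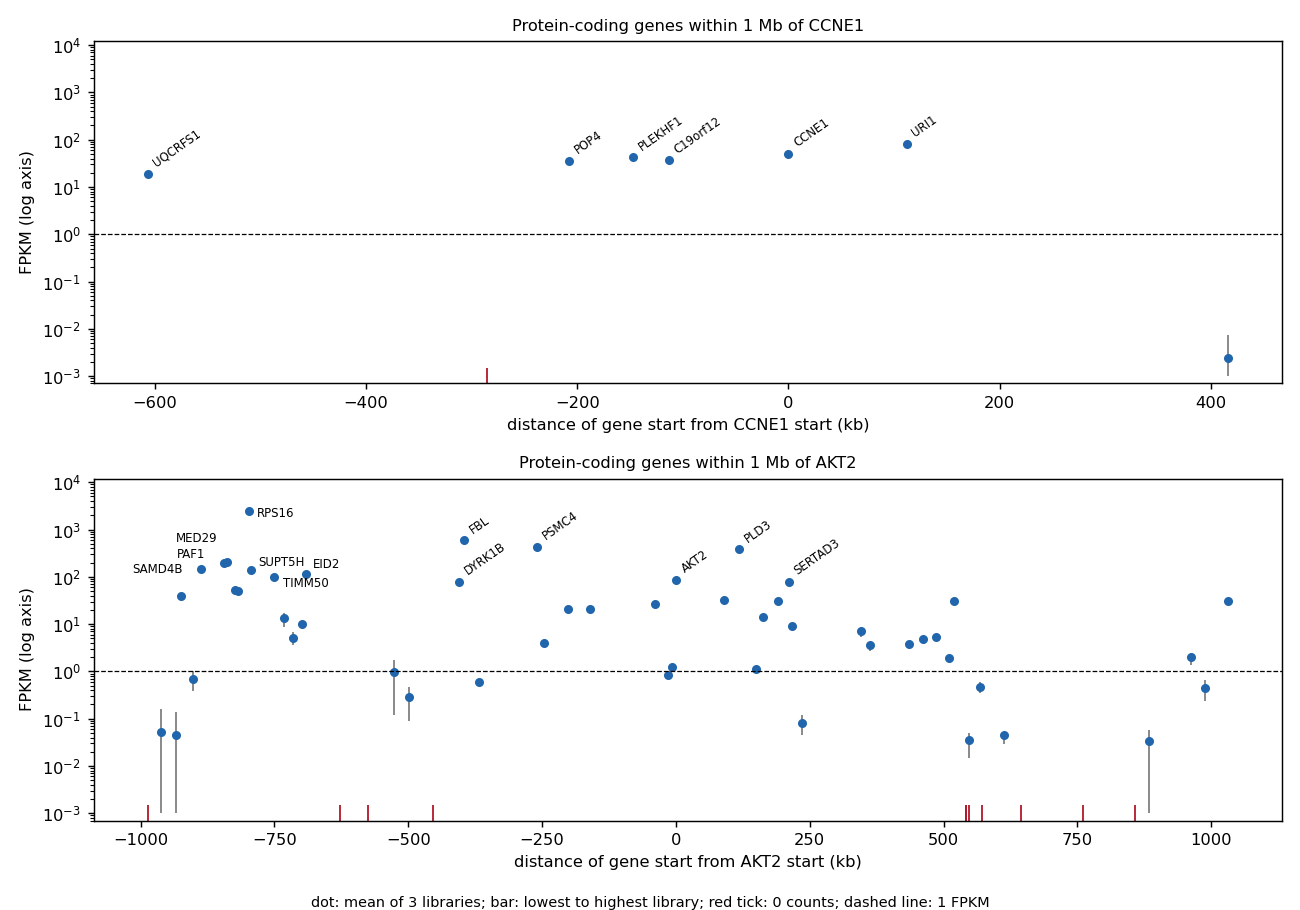
FPKM (log axis) of protein-coding genes within 1 Mb of CCNE1 (top) and AKT2 (bottom) by the distance in kb from the lowest coordinate of each gene to that of CCNE1 or AKT2; dots are means of 3 libraries, bars run from the lowest to the highest library and red ticks are genes at 0 counts. All 6 expressed genes around CCNE1 lie between 19.1 and 82.7 FPKM, and 10 genes around AKT2 have means of 100 or more.

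Promoter letters were set against the classes of expressed and silent genes, as a description with no test. RefSeq promoters of GRCh38.p14, from 250 bases before to 50 after the start, were found for 14869 of 19893 protein-coding genes sought. A promoter was counted as CpG-rich where its GC content was at least 50% and its observed to expected CpG ratio at least 0.6. Of all matched promoters 64.6% were CpG-rich, against 83.7% of 8597 expressed, 47.4% of 4257 low and 19.4% of 2015 not detected genes. GGGCGG, the letters of a GC box, was found on either strand in 59.7% of all, 72.4% of expressed and 24.7% of not detected genes. TATAAA, the letters of a TATA box, went the other way, at 9.49% of all, 4.99% of expressed and 24.96% of not detected genes. CCAAT was found in 37.1% of expressed, 33.9% of low and 38.6% of not detected genes.

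Within the expressed genes the share of CpG-rich promoters was level from 10 FPKM up, at 86.3% for means of 10 to 100 and 86.1% for 100 or more. TATAAA was found in 4.37% of promoters of genes at 10 to 100 FPKM and in 10.9% of the 238 at 100 or more, and CCAAT in 38.2% and 44.5%. Leaving out the ribosomal proteins, the values of the top group were 11.5% and 47.4% over 192 promoters. Of the 4 promoters shown earlier, CpG ratios over the full 300 bases were 0.973 for CCNE1 and 0.666 for WFDC2, both CpG-rich, and 0.483 for PAX8 and 0.228 for MUC16, which were not. None of the 4 held TATAAA in that window. The absence of these letters from a window says nothing about which factors bind there.

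**Figure D4:**
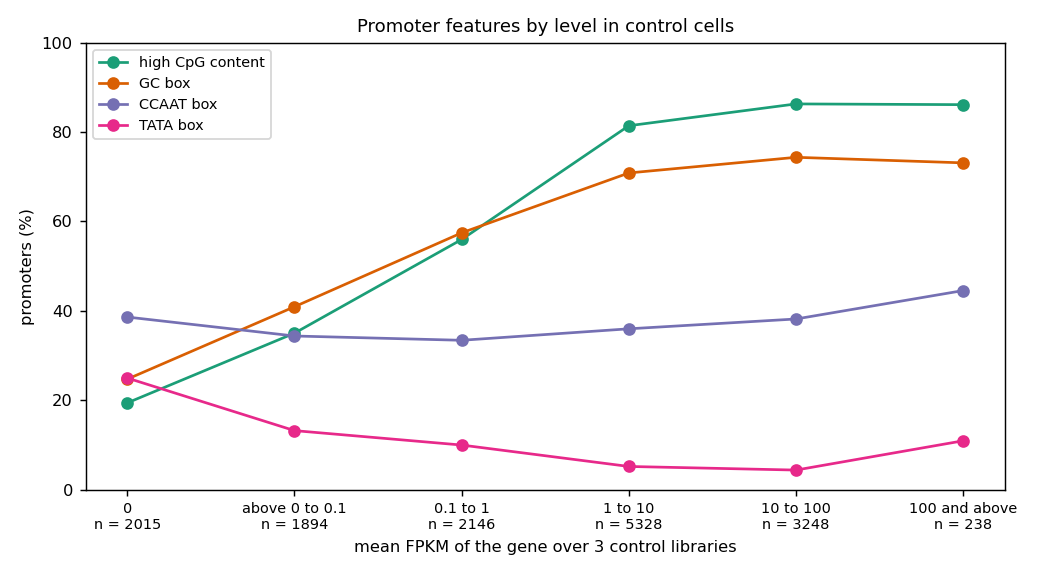
Share of RefSeq promoters (%) that are CpG-rich or hold a GC box, a CCAAT box or a TATA box on either strand, by the mean FPKM of the gene over 3 control libraries, with the number of promoters in each class. CpG-rich promoters go from 19.4% at 0 counts to 86.1% at 100 FPKM or more, while the TATA box goes from 24.96% to 4.37% at 10 to 100 FPKM and is at 10.9% above that.

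The spread between control libraries was small for most genes and wide for a few. Over 10744 expressed protein-coding genes the median coefficient of variation (CV, the SD as a percent of the mean) was 7.96%, where counting alone would give a median of 3.88%. It was 9.37% at means of 1 to 10 FPKM and 6.37% at 10 to 100. A CV above 25% was found for 351 genes. Among genes at a mean of at least 10 FPKM the widest spread was that of HSPA1B, with a CV of 62.2%, followed by CLU with 59.6% and HSPA1A with 52.3%. HSPA1B and HSPA1A are near-identical genes of the inducible heat shock protein, and their summed level was 78.1, 39.6 and 26.4 FPKM. CDC42EP5, an effector of the small GTPase CDC42, was at 34.0, 82.3 and 95.4 FPKM, and TMPRSS15, the protease enteropeptidase, at 16.9, 33.2 and 38.2. CXCL1, a neutrophil chemokine, was at 10.7, 22.2 and 16.4 FPKM, ZNF703 at 7.01, 14.3 and 11.3, and BASP1 at 8.02, 15.3 and 15.4.

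Replicate 1 was the highest library for 4 and the lowest for 6 of the 10 genes with the widest spread, though not always the one apart. In AC004556.1, an unplaced-contig gene at 9.74, 21.9 and 11.6 FPKM, replicate 2 was apart, and in HSPA1A (43.2, 25.2 and 14.6 FPKM) and CXCL1 the 3 libraries were graded. Of 4304 genes at 10 FPKM or more, replicate 1 was above both other libraries by over 1.5 times in 10 and under both by as much in 18. Replicate 2 was so in 1 gene, above the others, and replicate 3 in 2, under the others. Across 12228 expressed genes the log2 levels of replicate 1 had Pearson correlations of 0.986 and 0.984 with replicates 2 and 3, against 0.990 between those 2, which are correlations over genes and not over independent samples. Without replicate 1 the median CV was 5.58%, PAX8 was at 118 FPKM, CCNE1 at 45.2, WFDC2 at 163 and MUC16 at 31.1. Without replicate 2 or 3 the median CV was 7.56% or 6.60%. These CVs are over 2 libraries and are not like for like with the 7.96% over 3.

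**Figure D5:**
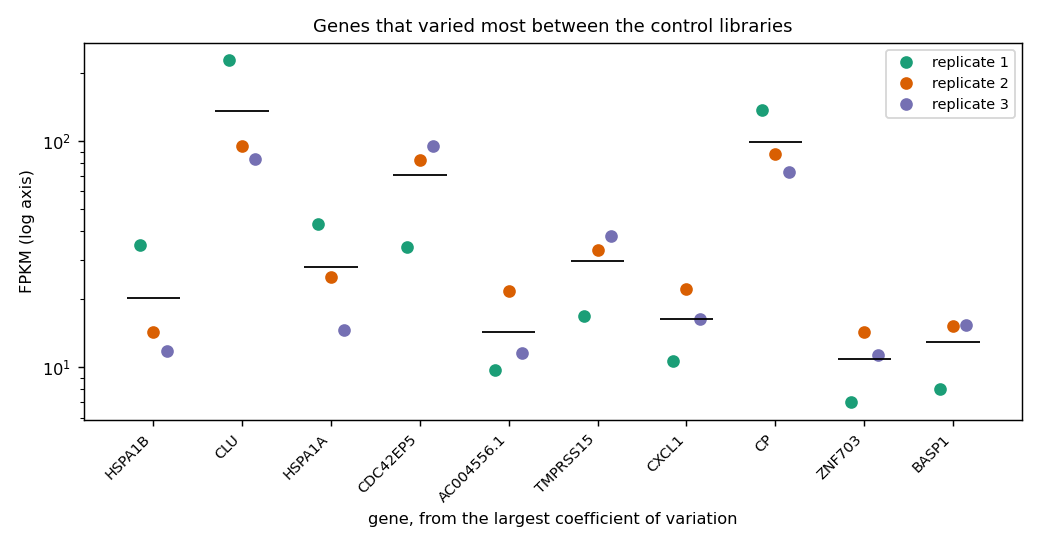
FPKM (log axis) in the 3 control libraries of the 10 protein-coding genes with the largest coefficient of variation among those with a mean of at least 10 FPKM; points are libraries and horizontal lines are means. Replicate 1 is the highest point for 4 genes and the lowest for 6.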

How the data were processed

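Poly-A RNA was sequenced in 9 non-directional libraries, per the labels' protocols, and 3 were described. The authors deposited counts and FPKM for 58735 genes. The submitters' processing notes name HISAT2 2.0.5, featureCounts 1.5.0-p3 and hg38, with no settings. The deposited FPKM equalled the count divided by gene length (all GENCODE 29 exons) and by 1 size per library, 98.1% to 101% of its total.

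Values are means and SDs of deposited FPKM, with no filter on genes and no test. Scripts (Python 3.11.15, pandas 2.3.3, and edgeR 4.0.16 for TMM sizes) were tested on simulated data. The limit for a gene at 0 is 3 counts in the shallowest library and covers counting error only.

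Named genes are the 20 highest nuclear protein-coding genes with and without ribosomal proteins, mitochondrial genes, the 10 highest long non-coding genes, members of 23 lists, up to 5 of each of 17 families, the 10 widest spreads, and neighbours of CCNE1. Members, lists and rules were chosen with earlier results of these data known. The AKT2 and MUC16 surroundings, genome windows, exon overlaps, glutathione peroxidases and the order of transcription factors were added after values were seen. Alternatives were other thresholds, TPM, counts, TMM scaling, and leaving out genes or replicates. A few members of the lists count in their totals but are not reported here by name.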

Additional observations from a re-analysis of the deposited data

How the results depend on the processing

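The 3 libraries of 1 line limit every level here, and the labels do not say whether they are separate cultures. No paired analysis was possible because 1 group was described and no test was run. The number of expressed protein-coding genes was 11703 at 0.5 FPKM, 9316 at 2 FPKM, 12396 at 1 TPM, 13045 at 10 counts and 10795 to 10883 with a replicate left out. Shares moved with the unit. By counts, protein-coding genes held 97.5%, the 20 highest genes by counts 9.02%, mitochondrial genes 4.51% and ribosomal proteins 7.12%. Without mitochondrial genes, protein-coding genes held 91.9% of FPKM, the 20 highest genes 9.31% and ribosomal proteins 10.8%, and a mitochondrial share could not be given. Without genes under 300 bases, protein-coding genes held 93.3% and mitochondrial genes 15.9%. In TPM, PAX8 was at 439, MUC16 at 128, WFDC2 at 665 and CCNE1 at 181, because TPM rescales the FPKM of a library to a fixed sum. The share of expressed genes with a CpG-rich promoter was 84.9% at 2 FPKM and 88.2% over genes with 1 listed start, the latter chosen after seeing the data. With a replicate left out, PAX8 ran from 118 to 125 FPKM, MUC16 from 31.1 to 39.0, WFDC2 from 163 to 195, CCNE1 from 45.2 to 54.4, and the median CV from 5.58% to 7.56%. Over 23 lists, 143 of 161 counts of expressed members stayed within 1.5 times the value given, and over 17 families 107 of 119 did.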

Other observations

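Ordered by level, PAX8 was among the highest of the 853 expressed transcription factors, an order looked at after the values were seen. YBX1, a cold-shock domain protein that binds RNA as well as DNA, was at 436, 452 and 505 FPKM, and CNBP, a nucleic acid binding protein, at 258, 247 and 291. ID1, which blocks basic helix-loop-helix factors, had a mean of 135 ± 9.67 FPKM, ATF4, of the amino acid response, 126 ± 2.82, and XBP1, of the secretory pathway, 122 ± 7.22. The range of PAX8, 114 to 128 FPKM, overlapped those of ATF4 and XBP1. MYBL2 and E2F1, factors of proliferating cells, had means of 108 ± 9.04 and 55.6 ± 2.40. EHF, an epithelial ETS factor, was at 85.0, 73.4 and 68.2 FPKM.

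The only olfactory receptor above the threshold, OR7D4, was at 8.75, 8.99 and 8.87 FPKM from 684, 770 and 770 counts, and held 77.0% of the FPKM of the 386 receptors. It spans 9210276 to 9219589 on chromosome 19, and its lowest coordinate lies 361 kb from that of MUC16. OR7G2 and OR1M1, at 252 and 238 kb from MUC16 by the same measure, had means of 0.592 ± 0.0289 and 0.331 ± 0.201 FPKM. Of 54 protein-coding genes within 1 Mb of MUC16, 29 were expressed, with a median of 8.97 FPKM. Both values were close to those of all protein-coding genes, of which 53.9% were expressed with a median of 7.50 FPKM.

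Among other peroxide-reducing glutathione peroxidases, GPX4, which acts on lipid peroxides, was at 110, 109 and 135 FPKM and GPX1, the cytosolic enzyme, at 76.9, 67.7 and 73.2, both above GPX3 in each library. The annotation classes GPX1 as a polymorphic pseudogene, so it is outside the protein-coding counts given here. Both genes were looked at after values were seen, and the rest of the family is not described.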
